A study of Mus musculus with 12 samples.

Results

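The mRNAs described here code for the proteins of the large (60S) subunit of the cytosolic ribosome. Members were taken by name: every gene of the count table whose mouse symbol starts with Rpl and a digit, together with Rplp0, Rplp1 and Rplp2, without pseudogenes and without Rpl7l1. This gave 48 members among 14675 gene IDs, and all 48 passed the filter on low counts that left 11343 genes for testing. The tagged gene Rpl22 and the paralogs Rpl22l1 and Rpl36al are among them. For 6 further symbols of the family, Rpl10l, Rpl32l, Rpl37rt, Rpl39l, Rpl3l and Rpl6l, the table used here held no row. Another 8 rows carried the name of a pseudogene of a member, and they were kept apart.

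RNA of adult mouse dorsal root ganglia (DRG), the ganglia that hold the cell bodies of sensory neurons, was sequenced as full-length cDNA on nanopores. All 4 groups came from mice of genotype RPL22HA+/+;Advillin-Cre+. In this RiboTag system Cre, driven in sensory neurons by Advillin, lets the ribosomal protein RPL22 carry an HA tag, and an anti-HA antibody then pulls down tagged ribosomes with the mRNAs on them. The groups were pulled-down RNA (IP) after AAV-shGpr151 with AAV-e5'UTR, IP after AAV-shGpr151 alone, total RNA (input) after AAV-shGpr151 with AAV-e5'UTR, and input after AAV-shGpr151 alone, with 3 deposited columns each. AAV-shGpr151 is a virus with a short hairpin against Gpr151, and every group had received it, so none of the comparisons bears on the hairpin itself. What AAV-e5'UTR carries is not stated in the labels. The groups with both viruses are called e5UTR from here on, and those with the hairpin virus alone shGpr151. The design text speaks of neurons cultured after a sciatic nerve injury made before culture, and the extraction protocol of freshly collected ganglia. Which of these was sequenced cannot be told from the sources used here, and the number of animals behind a column is not given there.

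A cytosolic large subunit carries a single copy of most of its proteins, which are built onto ribosomal RNA in the nucleolus. The acidic P proteins are the exception: several copies form a flexible stalk that recruits the elongation factors. The mRNAs of ribosomal proteins are known as TOP mRNAs, since they begin with a run of pyrimidines through which the kinase mTORC1 and the RNA-binding protein LARP1 adjust their translation together. Ribosomal protein mRNAs are made in every cell type of a ganglion, and in neurons some of them are also known to travel into axons.

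The pyrimidine run was looked for in the RefSeq promoter table (mouse build GRCm38.p6), which holds 36 of the 48 members. The search took the transcribed strand alone, from 15 bases before to 15 bases after each annotated start, and counted a run of at least 8 unbroken letters that are each C or T. Such a run was found in 18 of 36 members (50%), in 9 of 24 small-subunit genes (37.5%) and in 3760 of all 27025 genes of the table (13.9%). The windows of 3 members that stood high in IP, Rplp2, Rpl4 and Rpl38, of Rpl35, which stood near 0, and of 2 that stood low, Rpl14 and Rpl27a, are shown to let their starts be compared. They lie at chr7:141447636-141447665 (+ strand), chr9:64173372-64173401 (+), chr11:114668565-114668594 (+), chr2:39005117-39005146 (- strand), chr9:120571502-120571531 (+) and chr7:109519180-109519209 (+). They run 5′ to 3′, with the pyrimidine run in capitals:
Rplp2: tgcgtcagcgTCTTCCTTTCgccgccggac
Rpl4: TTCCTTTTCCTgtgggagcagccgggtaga
Rpl38: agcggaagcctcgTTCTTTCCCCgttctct
Rpl35: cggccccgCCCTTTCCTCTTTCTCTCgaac
Rpl14: gggcgggCCCTCTCTCTTCTCgctgagcgc
Rpl27a: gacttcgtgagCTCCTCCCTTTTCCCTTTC
High, low and near 0 refer to the main scaling set out below. The windows shown were picked among members with a run, so its presence in them follows from the choice. In Rpl4 the run lies wholly before the annotated start. The lowest members in IP with a window, Rpl12, Rplp0, Rpl22 and Rpl9, had no such run. Neither had Rpl36al and Rpl5, which stood high in IP (log2 0.56 and 0.55). A match is a description of these letters around an annotated start and does not show where transcription began in these cells. A window without the run says only that these letters were not in these 30 bases.

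The 3 columns of a group had totals within 0.201% of each other, and the chi-square between them was, for the median gene, 1.08 to 1.12 times the value that counting alone gives. For the members themselves this figure was 0.881 to 1.38. The chi-square p was under 0.05 for 7 (IP e5UTR), 8 (IP shGpr151), 10 (input e5UTR) and 2 (input shGpr151) of 48 members. Over all genes compared this share was 7.24% to 7.72%. Some members thus varied between columns beyond counting, such as Rpl36al with 676, 716 and 348 counts in input e5UTR. As the median gene varied little beyond counting, the columns were summed. Each group counts as 1 sample, called a pool. The pools held 4549204 counts (IP e5UTR), 4145071 (IP shGpr151), 2928926 (input e5UTR) and 2954427 (input shGpr151). Levels are CPM, counts scaled to a common library size by TMM, a method that sets the bulk of genes equal between libraries. Summed markers of sensory neurons stood at 9376 and 8926 CPM in the IP pools and at 4619 and 4665 CPM in the input pools, and 8 of 10 were higher and 2 lower in IP. Summed Schwann cell markers stood at 497 and 526 CPM in IP against 1590 and 1589 CPM in input (8 of 10 lower, Ncmap at 0 counts in both IP pools), and satellite glia markers at 434 and 419 CPM against 1588 and 1534 CPM (4 of 7 tested lower, 1 higher). Fibroblast markers stood at 280 and 240 CPM in IP against 1523 and 1566 CPM in input (6 of 7 tested lower), macrophage markers at 78.5 and 71.3 CPM against 172 and 171 CPM (6 of 9 tested lower), and hemoglobin mRNAs of red blood cells at 3.08 and 2.30 CPM against 2279 and 2329 CPM (4 of 4 lower, Hbb-bt at 0 counts in both IP pools). These calls are by TMM, with 28% of all tested genes called higher and 32.2% lower. With libraries scaled by their totals, 56.7% of all genes were called higher and 20.9% lower. On that scale 8 sensory neuron markers were higher and 0 lower. For Schwann cells these counts were 2 and 6, for satellite glia 2 and 3, and for fibroblasts 1 and 4. For macrophages they were 3 and 4, and for hemoglobin mRNAs 0 and 4. The part of these marker shifts in the ratios of the members was not tested. For the input, which is bulk RNA, the number of cells of a type and the RNA per cell cannot be told apart.

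The comparison of IP with input asks which mRNAs the tagged ribosomes of sensory neurons carried, relative to all RNA of the sample. The large-subunit mRNAs took up 11.39% and 11.27% of all counts in the IP pools e5UTR and shGpr151, against 7.33% and 7.31% in the input pools. Set against the bulk of genes, though, most members were lower in IP. By edgeR's quasi-likelihood test on 2 IP and 2 input pools with TMM scaling, 28 of 48 members were lower in IP, 6 were higher and 14 were not called. Over all tested genes 60.2% were called, 28% as higher and 32.2% as lower. A larger share of the members than of all genes was thus called lower, and a smaller share higher. The median member stood at log2 -0.33, with quartiles of -0.52 and -0.07. The median of all tested genes was 0.05, and their quartiles lay much wider, at -1.17 and 0.92.

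The direction of most members depended on the scale. With libraries scaled by their totals, the median of all genes moved up by 0.89 on the log2 scale, 41 members were called higher, 2 lower and 5 not called, and the members' median was 0.56 (background 56.7% higher and 20.9% lower). Of the 28 members lower by TMM, 21 were called higher by library total. The distance between the members' median and that of all genes was nearly the same under both scalings, -0.38. The large-subunit mRNAs thus took a larger share of the IP libraries, with a smaller shift than the median gene. The members called the same way under both scalings were 6 higher ones (Rplp2, Rpl4, Rpl36al, Rpl5, Rpl38 and Rpl3) and 2 lower ones (Rplp1 and Rpl36). As library totals moved values upward, agreement of higher calls was nearly given in advance, here and below. That of lower calls was not. The calls of Rpl36 rest on 77 to 112 counts a pool and leave out its pseudogene Rpl36-ps12.

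**Figure D1:**
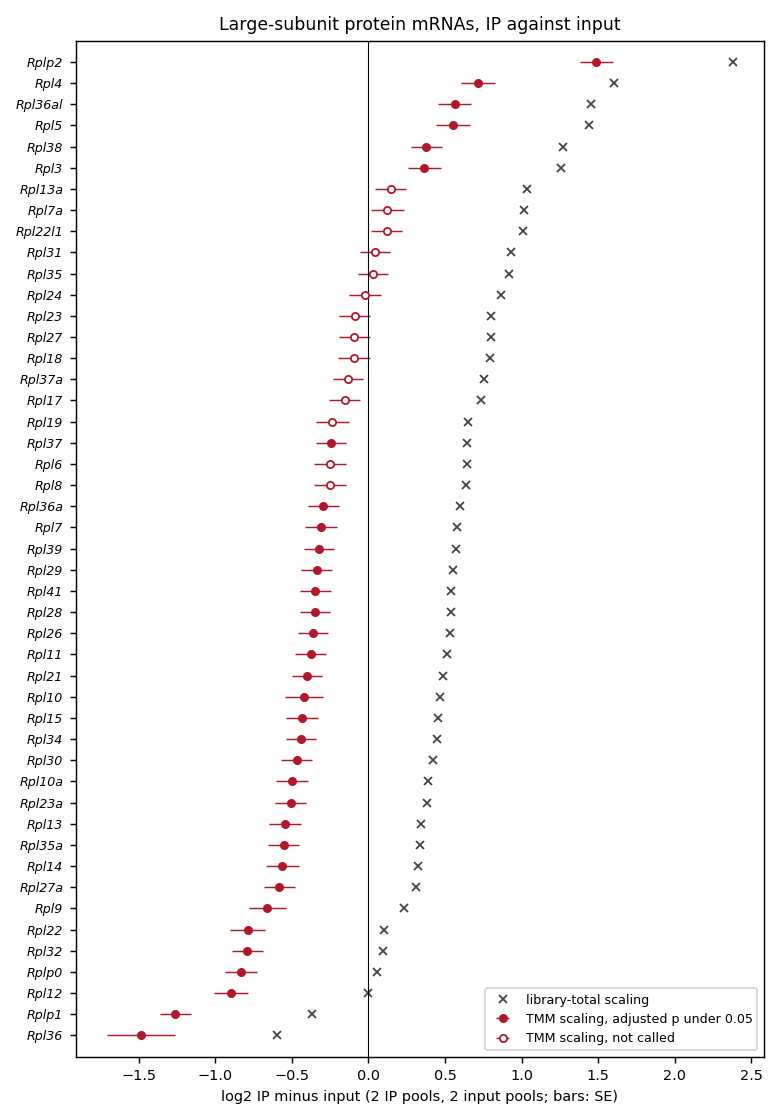
Log2 of IP over input for 47 members (rows), from 2 IP and 2 input pools. Circles are TMM-scaled values with their SE, filled where the adjusted p was under 0.05, and crosses are values scaled by library total: 6 filled circles lie right of 0 and 27 left of it, and all but 3 crosses lie right of 0.

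The stalk genes stood near both ends of the range. Rplp2 codes for P2, an acidic protein that pairs with P1 on the stalk. It had 2174, 1931 and 1943 counts in the columns of IP e5UTR and 1866, 1688 and 1905 in IP shGpr151, against 190, 247 and 280 in input e5UTR and 250, 236 and 296 in input shGpr151. On the TMM scale this was 981 and 964 CPM in IP against 332 and 362 CPM in input. Rplp2 was thus 2.80-fold higher in IP, the largest rise among the 48 members (log2 1.49 ± 0.11 SE, adjusted p = 2.38e-07), and log2 2.38 by library total. Rplp1 codes for P1, the partner of P2, and went the other way. It stood at 2584 and 2728 CPM in IP against 6363 and 6360 CPM in input, log2 -1.26 ± 0.10 (adjusted p = 4.74e-07) and -0.37 by library total (adjusted p = 0.00281). The IP and input pools did not overlap for either gene, so the mRNAs of the P1 and P2 partners were shifted in opposite directions under both scalings. Rplp0, whose protein P0 anchors the stalk, stood at 462 and 464 CPM in IP against 811 and 839 CPM in input (log2 -0.83 ± 0.10, adjusted p = 2.69e-05). Rpl12, whose protein sits at the stalk base, stood at 327 and 304 CPM in IP against 566 and 608 CPM in input (log2 -0.90 ± 0.11, adjusted p = 2.36e-05). By library total neither of these differed detectably between IP and input (0.06, adjusted p = 0.611, for Rplp0 and -0.01, adjusted p = 0.964, for Rpl12).

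The proteins RPL5 and RPL11 enter the subunit together with 5S rRNA and, when free of it, are known to bind the p53 regulator MDM2. Rpl5 stood at 291 and 282 CPM in IP against 199 and 193 CPM in input, 1.46-fold higher (log2 0.55 ± 0.11, adjusted p = 0.00122; 1.44 by library total). Rpl11 stood at 1728 and 1618 CPM in IP against 2163 and 2184 CPM in input, log2 -0.38 ± 0.10 (adjusted p = 0.00672), and by library total it was called higher (0.51, adjusted p = 3.70e-04). Under TMM the mRNAs of this pair were therefore called in opposite directions, and under library totals both were called higher.

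Rpl22 is the gene that carries the tag. It was sequenced with 751, 763 and 785 counts in the columns of IP e5UTR and 589, 644 and 616 in IP shGpr151, against 453, 455 and 419 in input e5UTR and 413, 446 and 425 in input shGpr151. Scaled, these were 373 and 326 CPM in IP against 614 and 594 CPM in input, 1.73-fold lower in IP (log2 -0.79 ± 0.11, adjusted p = 8.41e-05). By library total the difference was 0.10 (adjusted p = 0.414). The mRNA of the tagged protein was therefore not among those highest in its own pull-down. Its paralog Rpl22l1, whose protein can take the place of RPL22 in the ribosome, stood at 1448 and 1345 CPM in IP against 1295 and 1278 CPM in input (log2 0.12 ± 0.10, adjusted p = 0.334; 1.01 by library total, adjusted p = 1.64e-06). The members closest to Rpl22 in their IP to input ratios in both treatments were Rpl32, Rplp0 and Rpl12, with summed differences of 0.005, 0.10 and 0.21 on the log2 scale.

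**Figure D2:**
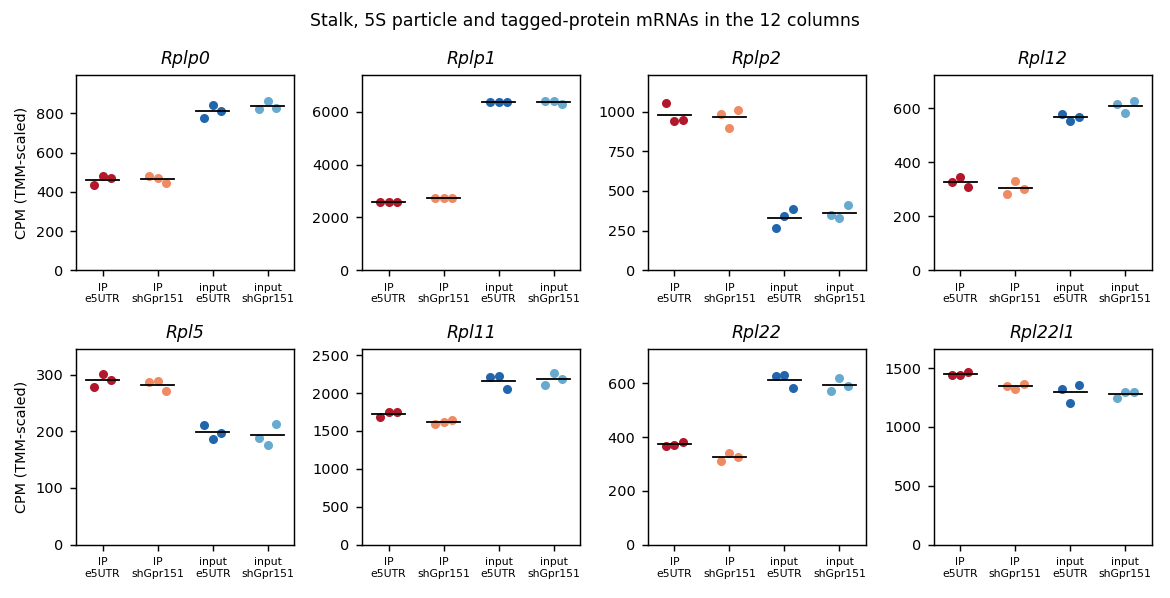
TMM-scaled CPM of 8 members in the 12 deposited columns (points) and the 4 pools (horizontal lines), for the 4 stalk genes (top), the 5S pair Rpl5 and Rpl11, the tagged Rpl22 and its paralog Rpl22l1 (bottom). The IP points of Rplp2 and Rpl5 lie above all their input points, those of Rplp0, Rplp1, Rpl12, Rpl11 and Rpl22 below them.

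Around the exit tunnel, through which the new chain leaves the ribosome, 1 of 8 listed members was higher and 3 were lower. Another 4 were not called, and of all genes 28% were higher and 32.2% lower. Rpl4, whose protein reaches into the tunnel wall, was the higher one at 348 and 350 CPM in IP against 211 and 216 CPM in input (log2 0.71 ± 0.11, adjusted p = 1.60e-04; 1.60 by library total). Rpl35, whose protein lies at the rim, stood at 6624 and 6267 CPM in IP against 6279 and 6363 CPM in input, and these overlapped (log2 0.03 ± 0.10, adjusted p = 0.817). The lower ones were Rpl23a, Rpl26 and Rpl39, at log2 -0.51, -0.36 and -0.32, each of which was called higher by library total. Of the 4 listed members near the peptidyl transferase centre, where peptide bonds form, Rpl3 was higher (366 and 368 CPM in IP against 281 and 288 CPM in input, log2 0.36 ± 0.11, adjusted p = 0.0122), Rpl10 and Rpl36a were lower (log2 -0.42 and -0.29, adjusted p = 0.0125 and 0.0239) and Rpl8 was not called (-0.25, adjusted p = 0.0515). All 4 were called higher by library total, as were 56.7% of all genes. Rpl10a, of the L1 stalk beside the tRNA exit site, was lower by TMM at log2 -0.50 (adjusted p = 0.0013) and higher by library total at 0.39 (adjusted p = 0.003).

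Rpl36al and Rpl36a code for nearly the same protein, and the sources used here do not give how reads that match both were shared out. Rpl36al stood at 1295 and 1194 CPM in IP against 805 and 880 CPM in input (log2 0.56 ± 0.11, adjusted p = 7.60e-04), and Rpl36a at 1670 and 1590 CPM against 1979 and 2018 CPM. The input columns of Rpl36al were uneven, with 676, 716 and 348 counts in e5UTR and 613, 754 and 536 in shGpr151. Rpl38, whose mutation is known in mice to disturb the translation of Hox mRNAs and the axial skeleton, stood at 8727 and 9693 CPM in IP against 7069 and 7096 CPM in input (log2 0.38 ± 0.10, adjusted p = 0.00673; 1.27 by library total). At the other end, Rpl32 stood at 2415 and 2231 CPM in IP against 3972 and 4067 CPM in input (log2 -0.79 ± 0.10, adjusted p = 3.34e-05), and by library total the difference was 0.10 (adjusted p = 0.347). Rpl36 had by far the fewest counts of these, 22, 53 and 31 in IP e5UTR and 34, 22 and 23 in IP shGpr151, against 34, 16 and 27 in input e5UTR and 46, 35 and 31 in input shGpr151. It stood at 17.2 and 13.9 CPM in IP against 35.6 and 51.8 CPM in input, the lowest ratio of the 48 (log2 -1.49 ± 0.22, adjusted p = 1.10e-04; -0.60 by library total, adjusted p = 0.0243). With its pseudogene Rpl36-ps12 added, the sums were 206 and 126 counts in IP e5UTR and IP shGpr151, against 92 and 149 in input e5UTR and input shGpr151. The ratio of the sums was log2 -0.998 (adjusted p = 0.00374), which is above that of Rplp1, so the rank of Rpl36 depended on the pseudogene. The sums were fitted with TMM only, so their direction by library total was not tested.

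The other members named here lay between these. Those called lower by TMM were Rpl9, Rpl27a, Rpl14, Rpl35a, Rpl13, Rpl30, Rpl34, Rpl15, Rpl21, Rpl28, Rpl41, Rpl29, Rpl7 and Rpl37, from log2 -0.66 (Rpl9) to -0.24 (Rpl37). Apart from Rpl9 (0.23, adjusted p = 0.0771), each of these was called higher by library total. Not called were Rpl6, Rpl19, Rpl17, Rpl37a, Rpl18, Rpl27, Rpl23, Rpl24, Rpl31, Rpl7a and Rpl13a, from -0.25 (Rpl6) to 0.145 (Rpl13a), beside Rpl8, Rpl35 and Rpl22l1 above. Rpl24, at the subunit interface, stood at 2465 and 2208 CPM in IP against 2381 and 2362 CPM in input, with IP pools on both sides of the input pools. In all, 9 members, Rpl18, Rpl19, Rpl23a, Rpl24, Rpl31, Rpl32, Rpl35, Rpl35a and Rpl5, overlap another protein-coding gene in the RefSeq annotation of GRCm38.p6, and the sources used here do not give whether the counting used strand. Among members with a promoter, the median was log2 -0.17 (-0.58 to 1.49) for the 18 with a pyrimidine run and -0.32 (-0.90 to 0.56) for the 18 without. The ranges overlapped. The split was made after the data were seen and was not tested.

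The 4 pools leave few degrees of freedom, and the calls of the smaller differences rested on both input pools. Without the input e5UTR pool or without the input shGpr151 pool, 16 members were called, 3 higher and 13 lower, where 1 input pool is then assumed to vary like the IP pools. In these fits 19.5% and 19.7% of all genes were called higher and 25.5% and 25% lower, so the members' share of lower calls, 13 of 48, was then near that of all genes. Rpl3 lost its call without either input pool (adjusted p = 0.211 and 0.167) and with DESeq2 (0.0615), and Rpl38 without either (0.154 and 0.15). Rpl5 lost it without input shGpr151 (0.0524) and Rpl36al without input e5UTR (0.0578). Rpl11 lost it without either (0.156 and 0.17). Without the IP e5UTR pool, 11 members were called higher, beside 22.7% of all genes, and 31 lower, beside 27.5%.

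The ratios could also be read within each treatment, where IP and input come from separate pools of their own. The median member stood at log2 -0.32 in e5UTR and -0.33 in shGpr151. Across the 48 members the ratios of both treatments ran together (Pearson's r = 0.958, Spearman's rho = 0.955, as a description, since the members of a treatment share their libraries). The median absolute difference between treatments was 0.09, beside an SD over members of 0.50. Rplp2 stood at 1.56 in e5UTR and 1.41 in shGpr151, Rplp1 at -1.30 and -1.22, and Rpl22 at -0.72 and -0.86. The sign was the same in both treatments for 46 members. The exceptions were Rpl24 (0.05 in e5UTR, -0.10 in shGpr151) and Rpl35 (0.08 in e5UTR, -0.02 in shGpr151), both close to 0. The widest gap was that of Rpl36, at -1.05 in e5UTR and -1.89 in shGpr151, a difference of 0.84 on few counts.

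**Figure D3:**
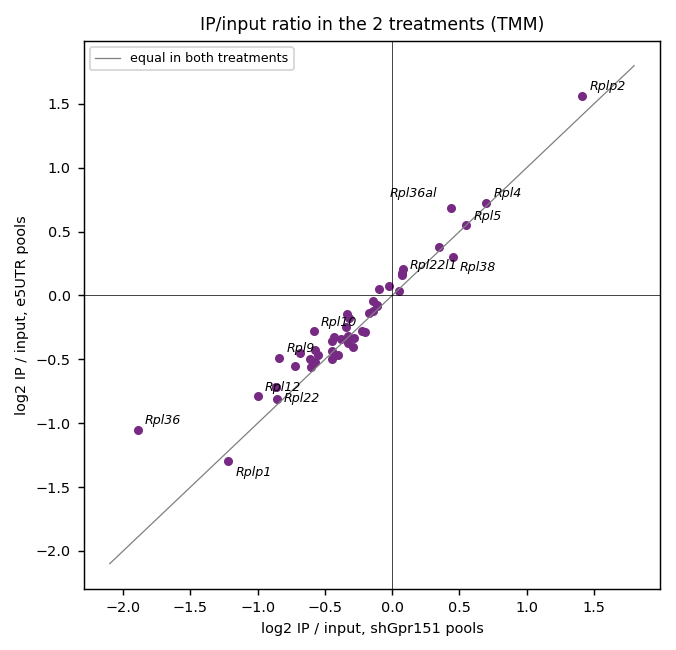
Log2 of IP over input (TMM) of the 48 members in the e5UTR pools (vertical axis) against the shGpr151 pools (horizontal axis), with the line of equal values. The points follow the line (r = 0.958), Rplp2 at its upper end and Rplp1 at its lower end, and Rpl36 stands farthest from it.

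The other genes of the pathway were read from lists. Of the 35 tested small-subunit genes 31 were lower in IP by TMM and 2 higher (32.2% and 28% of all genes), with a median of log2 -0.51, beside -0.33 for the large-subunit members. By library total 24 were higher and 4 lower (56.7% and 20.9% of all genes), with a median of 0.38, beside 0.56. The difference between the subunits was not tested. Of 16 other known TOP mRNAs, 6 were higher and 3 lower by TMM (28% and 32.2% of all genes), with a median of log2 0.21. By library total 14 were higher and 2 lower (56.7% and 20.9% of all genes), with a median of 1.10. Eef1a1 and Eef2, which code for elongation factors, were higher at log2 1.57 (1389 and 1316 CPM in IP against 469 and 439 CPM in input) and 2.01 (418 and 384 CPM against 87.9 and 111 CPM), and Eif3f, of an initiation factor, at 2.19. Tpt1, which codes for the tumour protein TCTP, was lower at log2 -3.04, with 126 and 120 CPM in IP against 996 and 1037 CPM in input. These 4 were called the same way by library total.

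Of 31 tested genes for 60S assembly factors, which build the subunit in the nucleolus and ready it for use, 10 were higher and 9 lower by TMM (28% and 32.2% of all genes), with a median of log2 0.26. By library total 21 were higher and 7 lower (56.7% and 20.9% of all genes), with a median of 1.15. The shares were thus not far from those of all genes by TMM. The widest differences were those of Zfp622 (log2 3.12) and Ddx51 (2.52) upward and Nip7 (-2.97), Ppan (-2.78) and Mdn1 (-2.65) downward, each called the same way by library total. Ddx51 had 1 count in each input pool, against 15 in IP e5UTR and 18 in IP shGpr151. Its IP to input ratio in e5UTR had a counting interval of 0.81 to 221, which holds 1. Zfp622 had 11 and 8 counts in the input pools, so both upward values rest on few input counts. Of 10 genes for TOP mRNA binding and mTORC1, 4 were higher and 2 lower by TMM (28% and 32.2% of all genes). By library total 8 were higher and 0 lower (56.7% and 20.9% of all genes). Larp1, whose protein binds TOP mRNAs, stood at 37.8 and 32.7 CPM in IP against 13.4 and 14.3 CPM in input (log2 1.34 ± 0.21, adjusted p = 1.55e-04), and Eif4ebp1, a translational repressor controlled by mTORC1, at 34.9 and 24.9 CPM against 49.1 and 50.9 CPM (log2 -0.74 ± 0.19, adjusted p = 0.0052; 0.15 by library total, adjusted p = 0.472).

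The comparison of e5UTR with shGpr151 asks what the second virus changed. Over both fractions together, with fraction as a term in the same test, 0 of 48 members were called (background 0.176% of genes). Among the members 0 had an unadjusted p under 0.05, beside 460 of all 11343 genes. DESeq2 called 0 of all genes, so its 0 members say nothing about the members in particular. The members' differences ran from log2 -0.12 to 0.20 around a median of 0.03, and their smallest adjusted p was 0.999. With 1 residual degree of freedom this fit had little reach. A level shared by both fractions may have differed by amounts that it could not show. Within a fraction there is 1 pool per treatment, so the following ratios have no replicate check, and their intervals cover counting error only.

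In the IP pools the large-subunit mRNAs as a sum stood at 1.02 times their shGpr151 level. Single members lay between 0.90 and 1.27 around a median of 1.05, while the median of all genes was 1.00, and 40 of 48 were within 10% of 1. Rpl10 was the 1 member more than 25% above or 20% below 1 (background 40.3% of all genes, and 16.9% of those with at least 500 counts in the pair of pools). The 95% counting interval left out 1 for 34 members, 28 higher and 6 lower (background 21% of 11313 genes). Only 1959 of those genes had at least 500 counts in the pair, and intervals narrow with counts, so the shares are not at like depth. Differences of a few percent were thus beyond counting error here, without a measure of how far 2 pools of the same treatment differ. With DESeq2 size factors 0 members were more than 25% above or 20% below 1. The intervals were not counted on that scale. Rpl10 stood at 637 CPM in IP e5UTR against 502 CPM in IP shGpr151, a ratio of 1.27 (interval 1.21 to 1.33), Rpl9 at 676 against 564 CPM, 1.198 (1.144 to 1.255), and Rpl19 at 2011 against 1751 CPM, 1.15 (1.12 to 1.18). The ratio of Rpl36, 1.23, had the widest interval (0.91 to 1.67), which holds 1. Rpl22 stood at 373 CPM in IP e5UTR against 326 CPM in IP shGpr151, 1.14 (1.07 to 1.22). The lowest ratio was that of Rpl38, at 8727 against 9693 CPM, 0.90 (0.89 to 0.91), followed by Rpl41 at 2182 against 2372 CPM, 0.92 (0.90 to 0.94), and Rplp1 at 0.95 (0.93 to 0.97).

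In the input pools the sum stood at 0.996 times its shGpr151 level and the median member at 0.997 (all genes 1.00), with 47 of 48 within 10% of 1. The 1 member more than 25% above or 20% below 1 was Rpl36 at 0.69 (0.51 to 0.93) on 77 against 112 counts (background 44.3% of all genes, and 0.852% of those with at least 500 counts). The interval left out 1 for 5 members, 1 higher and 4 lower (background 5%, again over genes of all depths). Rpl15 was the highest at 1325 CPM in input e5UTR against 1210 CPM in input shGpr151, 1.09 (1.04 to 1.16), followed by Rpl29 at 1.05 (0.99 to 1.11) and Rpl18 at 1.03 (0.95 to 1.12). Below 1, Rpl36al stood at 0.91 (0.86 to 0.98) and Rplp2 at 0.92 (0.83 to 1.02). Rpl36al did not hold its side of 1 between columns, with ratios from 0.80 to 1.08 when 1 column at a time was left out. Over the 12 columns the ratio of e5UTR to shGpr151 differed between IP and input for 10 members by edgeR's interaction test (background 5.11% of genes), 9 with the larger ratio in IP and Rpl38 with the smaller, a test on reads that compares these libraries and not the conditions.

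**Figure D4:**
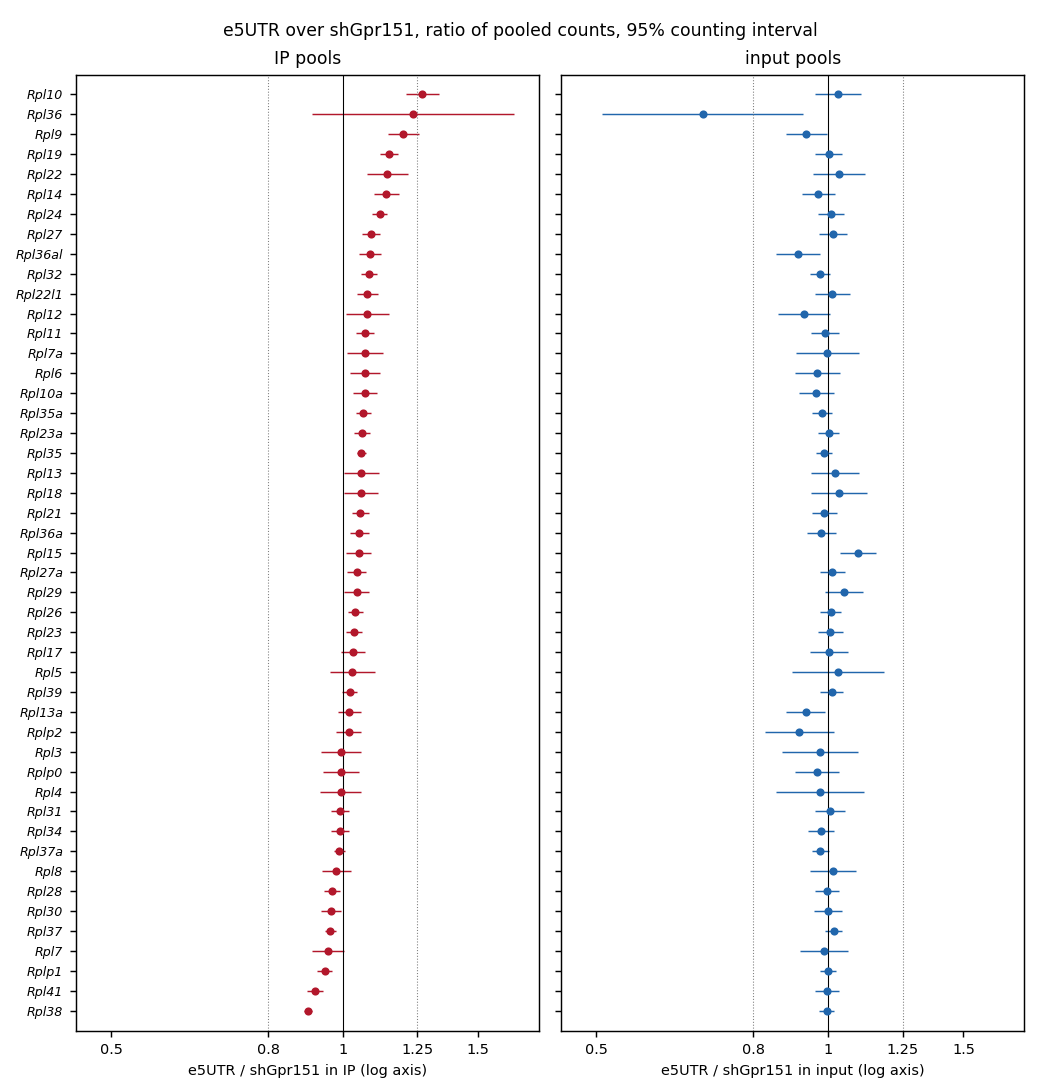
Ratio of e5UTR to shGpr151 for 47 members in the IP pools (left) and the input pools (right), on log axes, with 95% counting intervals and dotted lines at 25% above and 20% below 1. In IP Rpl10 alone lies past a dotted line, at 1.27, and in input Rpl36 alone, at 0.69.

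Some of these ratios involve pseudogenes whose sequence is close to a member's. Rpl10 had 1324, 1300 and 1303 counts in IP e5UTR against 946, 938 and 960 in IP shGpr151. Rpl10-ps3 had 1408, 1354 and 1323 counts in IP e5UTR against 1543, 1507 and 1515 in IP shGpr151. The gene was thus higher and its pseudogene lower, with no overlap of columns for either. Summed, the pair held 8012 counts in IP e5UTR and 7409 in IP shGpr151, a scaled ratio of 0.99 (0.96 to 1.03), where Rpl10 alone gave 1.27. The IP to input ratio of Rpl10, log2 -0.42 alone, was 0.06 (adjusted p = 0.602) with Rpl10-ps3. For Rpl9 the ratio in IP was 1.06 (1.02 to 1.098), against 1.198 alone, once Rpl9-ps6 and Rpl9-ps4 were added. Rpl19 stayed at 1.15 (1.12 to 1.18) with Rpl19-ps11, which had few counts. Rpl36 moved the other way: with Rpl36-ps12 its ratio was 1.502 (1.198 to 1.89) in IP and 0.62 (0.47 to 0.81) in input, on the few counts given above. On such sums Rpl36, and no longer Rpl10, was the member more than 25% above 1 in IP. The sources used here do not give how a read that matches a gene and its pseudogene was assigned, and these sums were added after the data were seen. The ratio of Rpl10 alone is therefore a value of that gene ID, not of the reads of the pair.

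**Figure D5:**
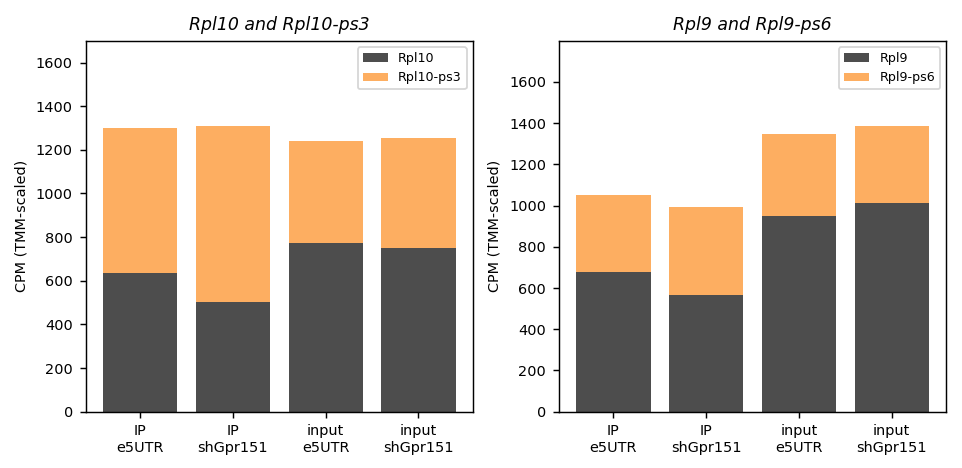
TMM-scaled CPM of Rpl10 and Rpl10-ps3 (left) and of Rpl9 and Rpl9-ps6 (right), stacked, in the 4 pools. The Rpl10 part is taller in IP e5UTR than in IP shGpr151 (637 against 502 CPM), while the full bars of both IP pools are nearly level.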

How the data were processed

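Libraries of 4 groups of 3 samples were made with Oxford Nanopore's barcoding kit for PCR cDNA, per the labels' protocols. The authors deposited 1 table of estimated counts per Ensembl gene ID, written as whole numbers; the submitters' processing notes name minimap2, Salmon, GRCm39 and mm39, without roles or versions. The sources used here do not give counter settings, annotation release or strand use. A symbol was matched for 13191 of 14675 IDs (89.9%), from a gene name table. No gene had a total under 13 counts over the 12 columns.

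Columns were assigned to samples by name and summed to 1 pool per group, since for the median gene they differed little beyond counting noise (chi-square per gene, 30 or more counts). Nothing says that they came from separate animals, so p-values reflect the spread of these pools alone, which may be technical, and the 2 IP pools, like the 2 input pools, differ in treatment. All genes were fitted with the quasi-likelihood test of edgeR (4.0.16, in R 4.3.3) with TMM scaling (factors 1.355 and 1.367 in IP, 0.738 and 0.732 in input), filterByExpr (minimum count 10, minimum total 15), Benjamini-Hochberg adjustment and a threshold of 0.05. The biological coefficient of variation was 10.4% over pools and 2.58% over columns. Within a fraction, ratios of pooled counts have exact Clopper-Pearson 95% intervals, and those more than 25% above or 20% below 1 were counted. A count of 0 allows 0.487 and 0.53 CPM in the IP pools and 1.39 CPM in each input pool (3 counts). Reads from PCR are not independent molecules, so intervals and floors cover counting error only. DESeq2 1.42.0, other scalings, no filter, 12 columns as samples, and columns or pools left out were the alternatives. The test was tried on simulated counts with known changes.

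The members, the gene lists and the tests were chosen with earlier results of these data known, so counts over the lists are descriptions. Values per pool are given for Rpl22, Rpl22l1, the stalk genes, Rpl5, Rpl11, the 5 highest and 5 lowest members in IP against input, the 3 with the largest e5UTR ratio in each direction and fraction (100 or more counts), and members with opposite signs between treatments. Rpl3, Rpl19 and the members named by role or overlap beside these were added after their values were seen. Start windows come from RefSeq (GRCm38.p6), another build than the one in the notes, and are used for their letters only. The values of 1 member and 1 gene of the lists are not reported here, though counts over all members include the member.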

Additional observations from a re-analysis of the deposited data

Results flagged for a closer look

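The IP to input ratio differed between treatments for 10 of 48 members in the interaction of fraction and e5UTR over the 12 columns (edgeR's quasi-likelihood test, adjusted p under 0.05, background 5.11% of genes tested). This test compares the reads of these libraries, not the conditions, since the columns of a group are close to parts of 1 pool. Among these, the log2 ratio in e5UTR minus that in shGpr151 was 0.355 for Rpl9 (adjusted p = 0.00283), 0.299 for Rpl10 (0.00326), 0.23 for Rpl14, 0.196 for Rpl19 (0.00363), 0.149 for Rpl32, 0.147 for Rpl24, 0.115 for Rpl35a and 0.099 for Rpl35. It was -0.146 for Rpl38 (adjusted p = 2.87e-04), the 1 member of the 10 with a lower ratio in e5UTR. With pseudogene rows added, an alternative chosen after seeing the data, the difference was 0.01 for Rpl10 (adjusted p = 0.96), 0.12 for Rpl9 (0.181) and 0.20 for Rpl19 (0.00288), and Rpl36 with Rpl36-ps12 stood at 1.28 (0.00154) on few counts.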

How the results depend on the processing

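Members called in IP against input numbered 16 without either input pool. Members called higher numbered 41 by library total, 40 by library total without mitochondrially encoded genes, 11 by the members' sum, 11 without IP e5UTR and 3 without either input pool. Members called lower numbered 2 by either library total, 13 by the members' sum and 13 without either input pool. Leaving out 1 column at a time gave 33 to 36 called, 6 higher and 27 to 30 lower. Of all genes, 56.7% were called higher and 20.9% lower by library total, and 55.7% and 21% without mitochondrially encoded genes. By the members' sum these shares were 36% and 27.8%, so the members' 13 lower calls of 48 were then near the share of all genes. With 1 column left out they were 26.8% to 29.1% and 31.4% to 33.2%. The shares without a pool are given in the Results.

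The members' median was 0.56 by library total, 0.527 without mitochondrially encoded genes, -0.341 with DESeq2 or its size factors, -0.071 by the members' sum, -0.248 without a filter, -0.224 without IP e5UTR, -0.286 without IP shGpr151, -0.307 without input e5UTR, -0.316 with pseudogene rows, and -0.354 to -0.307 with 1 column left out.

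By library total, and in brackets without mitochondrially encoded genes, these turned positive: Rpl10 0.467 (0.434), Rpl11 0.512 (0.479), Rpl15 0.454 (0.421), Rpl18 0.794 (0.761), Rpl22 0.1 (0.067), Rpl24 0.868 (0.835), Rpl29 0.55 (0.517), Rpl32 0.098 (0.065), Rpl41 0.542 (0.509), Rpl9 0.231 (0.197) and Rplp0 0.058 (0.025). By the members' sum Rpl18 stood at 0.163 and Rpl24 at 0.237. Rpl24, near 0 throughout, was also positive without a filter (0.06), without input e5UTR replicate 1 (0.004, range with 1 column left out -0.04 to 0.004), without IP e5UTR (0.005) and without IP shGpr151 (0.078). With pseudogene rows Rpl10 stood at 0.063 in IP against input and at a ratio of 0.9937 for e5UTR in IP. Beyond the construction of each setting, the cause was not tested.

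Members more than 25% above or 20% below 1 for e5UTR in IP numbered 0 with DESeq2 size factors and 1 to 2 with 1 column left out. Over the 12 columns, edgeR called 18 members in IP (11% of all genes) and 0 in input (0.198%; 1 member there had an unadjusted p under 0.05). Column numbers did not pair the samples (correlations of same-numbered columns -0.063 to 0.04), and with the replicate block edgeR called 17 in IP and 0 in input. Depth limits Rpl36 most.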
